A study of Mus musculus with 2 samples.

Results

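Osteoclasts, the cells that resorb bone, arise from blood-derived precursors, and 5 genes through which stromal cells are known to control them were followed across the cell types of old mouse bone and marrow. The genes were taken by name, with earlier results of these data known, as 5 of the 32285 genes counted. They were Tnfsf11, Tnfrsf11b, Csf1, Il34 and Pth1r. Tnfsf11 encodes RANKL, the membrane-bound or shed ligand that drives precursors to become osteoclasts through the receptor RANK, and Tnfrsf11b encodes osteoprotegerin, a secreted decoy that binds RANKL and keeps it from RANK. Csf1 and Il34 encode the ligands of CSF1R, the receptor that keeps osteoclast precursors alive and dividing. Pth1r encodes the receptor for parathyroid hormone and its related peptide, a receptor of the stromal and osteoblast lineage through which parathyroid hormone is known to raise Tnfsf11 and lower Tnfrsf11b.

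The cells came from the femurs and tibias of 3 male INK-ATTAC mice aged 24 months, pooled into 1 sample and measured by 10x Genomics 3′ single-cell RNA-seq. The labels call the 2 deposited samples replicates, and the series' design calls them lanes. INK-ATTAC mice carry a caspase 8 cassette under the p16 Ink4a promoter that kills p16-expressing cells only once a dimerizing drug is given, and the labels name no treatment. Marrow and digested bone were combined, depleted of lineage-positive cells on magnets and sorted as live CD45- cells, so most osteoclast precursors were removed before sequencing. There was no young, wild-type or treated group, so cell types within 1 pool are all that could be compared, and no p-value was computed.

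The lanes held 116827845 and 120556381 unique molecular identifiers (UMIs, tags that mark captured RNA molecules), with 10928 of 11056 barcodes found in both, so they held the same cells, not independent replicates, and were summed per barcode. A molecule may be counted in both, so summed UMIs, which set the depths, the UMIs per cell and the shares, are not numbers of distinct molecules. Of these barcodes, 9573 had at least 200 genes and at most 20% mitochondrial UMIs. LEPR stromal cells, the leptin receptor and CXCL12 expressing reticular cells of marrow, were the 1877 barcodes with a Lepr UMI and at least 5000 CPM of Cxcl12. CPM is the number of UMIs of a gene per 1000000 UMIs of the cell or class. Lepr and Cxcl12, which set the gate, are among the 12 markers of that cell type. Of the gated cells, 1733 lay in the 2 clusters named from those markers, while 140 lay in a cluster left unnamed. The remaining classes were clusters made without the 5 genes: 140 fibroblast-like, 62 endothelial-like, 144 megakaryocyte-like and 6394 erythroid-like cells. The fibroblast-like cluster was led by Fxyd6, Fn1, Cilp, Igfbp6 and Ccl11 and held 13 of 13 fibroblast markers. The 10 osteoblast markers summed to 22676 CPM in it against 5365 CPM in LEPR stromal cells, and the 8 chondrocyte markers to 2063 against 82.8 CPM. Cells with many of these markers were a part of the class, described below, so the name covers a mixture. Median depth was 5188 summed UMIs in LEPR stromal, 8469 in fibroblast-like, 3171 in endothelial-like, 8856 in megakaryocyte-like and 28537 in erythroid-like cells. Error ranges are exact 95% intervals that cover counting error only; they treat UMIs as independent and are too narrow where a few cells hold most of them.

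On GRCm38, the build of the deposited files, all 5 genes were on the minus strand and protein coding in GENCODE M21. Tnfsf11 (chr14:78277445-78308043) and Tnfrsf11b (chr15:54250619-54278484) had 1 transcript of 5 exons each. Csf1 (chr3:107741048-107760469) had 7 transcripts, Il34 (chr8:110741829-110805924) had 5, and Pth1r (chr9:110722085-110747145) had 6 protein-coding transcripts from 6 start sites. Counts were per gene, so these isoforms, among them the secreted and membrane-bound forms of CSF1, could not be told apart. Il34 overlapped Gm15894 and Gm15895, and Pth1r overlapped Myl3, all on the opposite strand.

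The 250 bases before the start of Tnfsf11, and before the most upstream of the 6 annotated starts of Csf1, are shown because both genes had their highest level in the same cell class. Capitals mark matches, on either strand, to TATAA (TATA box core), GGGCGG (GC box core), TGACGT (cyclic AMP response element core), TGTGGT (RUNX core) or CCCNNGGG (EBF core). The sequences are from RefSeq (GRCm38.p6), read 5′ to 3′ along the gene.
Tnfsf11, chr14:78308044-78308293, minus strand: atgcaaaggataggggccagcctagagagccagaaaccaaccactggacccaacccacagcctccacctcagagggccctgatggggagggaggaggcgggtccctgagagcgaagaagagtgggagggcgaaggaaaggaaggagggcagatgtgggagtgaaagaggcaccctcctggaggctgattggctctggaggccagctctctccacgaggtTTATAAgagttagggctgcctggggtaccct
Csf1, chr3:107760470-107760719, minus strand: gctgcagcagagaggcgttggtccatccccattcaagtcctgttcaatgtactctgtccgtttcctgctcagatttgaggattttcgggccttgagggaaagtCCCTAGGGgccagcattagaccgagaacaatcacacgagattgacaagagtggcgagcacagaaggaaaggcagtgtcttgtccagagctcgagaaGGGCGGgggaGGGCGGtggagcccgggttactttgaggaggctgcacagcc
The Tnfsf11 window held TATAA on the gene's own strand 30 bases before the start, overlapping a match on the other strand, and no match to the other 4 motifs. The Csf1 window held GGGCGG 51 and 41 bases before the start and CCCNNGGG at 147 bases. Of 32851 windows of the same length over the genome, 22.8% held TATAA, 32.7% GGGCGG, 6.47% TGACGT, 14.0% TGTGGT and 11.8% CCCNNGGG. A match is a run of letters and was not tested as a binding site. Windows were present for 3 of the 5 genes. Pth1r had 3 of them, with a GC content of 56%, 65.6% and 70.4%.

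The LEPR stromal cells held most of the UMIs of 4 of the 5 transcripts and few of the decoy. They made up 19.6% of kept cells and 4.63% of kept UMIs, but held 88.4% of Tnfsf11, 88.3% of Csf1, 91.0% of Il34 and 72.3% of Pth1r UMIs. Of Tnfrsf11b UMIs they held 16.8%, and the 140 fibroblast-like cells held 82.1%. Within LEPR stromal cells the levels fell in the order Csf1, Il34, Pth1r, Tnfsf11 and Tnfrsf11b, and no neighbours in that order had overlapping intervals. Counts of 3′ tags do not scale with transcript length, so levels were not divided by length. Whether the genes were captured equally was not tested. Among fibroblast-like cells the order was Tnfrsf11b, Pth1r, Csf1, Il34 and Tnfsf11, in which the intervals of Tnfrsf11b and Pth1r, of Pth1r and Csf1, and of Il34 and Tnfsf11 overlapped.

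**Figure D1:**
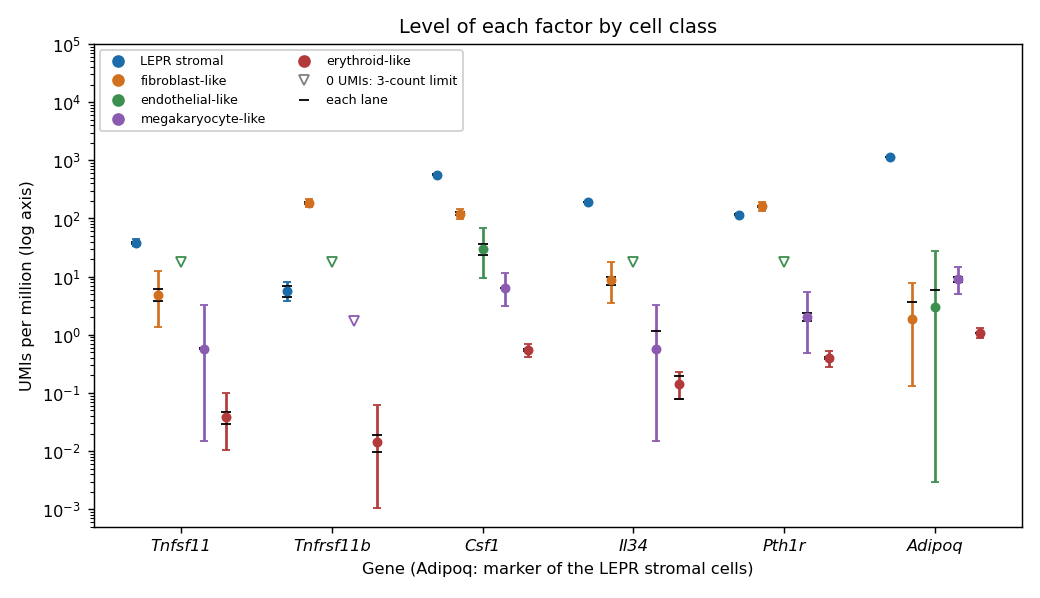
Level of each factor, and of the LEPR stromal marker Adipoq, in CPM on a log axis, in the 5 cell classes. Points are both lanes together with exact 95% counting intervals, black dashes are the lanes, and open triangles are limits where no UMI was seen. Tnfsf11, Csf1 and Il34 were highest in LEPR stromal cells, at 38.1, 564 and 190 CPM, and Tnfrsf11b was highest in fibroblast-like cells, at 184 CPM.

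Tnfsf11, the ligand itself, was read as 195 UMIs in lane 1 and 215 in lane 2 over the LEPR stromal cells, or 36.9 and 39.3 CPM. Together this gave 38.1 CPM (33.1 to 43.7), and 259 cells (13.8%, Clopper-Pearson 12.3 to 15.4) had at least 1 UMI. Most of those cells had a single UMI (155 cells), and the highest cell had 6. In fibroblast-like cells the lanes gave 3 and 5 UMIs, all in 4 cells, or 4.93 CPM (1.34 to 12.6). The intervals did not overlap, and the level in LEPR stromal cells was 7.74-fold that in fibroblast-like cells (2.98 to 28.7). In fibroblast-like cells 1 cell held 4 of the 8 UMIs, without which the level was 2.47 CPM (0.300 to 8.94), and at a finer clustering resolution of 1.2 it was 0.802 CPM. No Tnfsf11 UMI was seen in endothelial-like cells, which allowed up to 17.7 CPM. As 0 of 62 cells, this allowed a share of cells with a UMI of up to 4.84%, which is not a limit on cells that express the gene. By the exact interval, the LEPR stromal level was thus at least 1.74-fold that in endothelial-like cells.

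Tnfrsf11b, the decoy, had the opposite distribution. In LEPR stromal cells it was read as 24 and 37 UMIs, giving 5.67 CPM (3.84 to 8.08), and was found in 38 cells (2.02%, 1.44 to 2.77). In fibroblast-like cells the lanes gave 152 and 146 UMIs, 184 CPM (155 to 215), found in 20 cells (14.3%, 8.95 to 21.2). The intervals did not overlap, and the fibroblast-like level was 32.3-fold that of LEPR stromal cells (21.8 to 49.4). This level rested on few cells: 1 cell held 134 of the 298 summed UMIs (45.0%), and 5 cells held 253 (84.9%). The former was deep, at 59856 UMIs in all against a class median of 8469. Without the cell with the most UMIs it was 105 CPM (83.4 to 130), or 18.5-fold the LEPR stromal level (12.1 to 29.0). Cells taken by marker genes alone had 41.6 CPM. The 94 cells of the class with few osteoblast or chondrocyte markers had 10.6 CPM (3.43 to 24.6), which overlapped the LEPR stromal interval, so the fold rested on the remaining cells. No UMI was seen in endothelial-like cells (limit 17.7 CPM) or megakaryocyte-like cells (limit 1.74 CPM), so the depth could not place the endothelial level below that of LEPR stromal cells.

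Per Tnfrsf11b UMI, LEPR stromal cells had 6.72 Tnfsf11 UMIs (4.58 to 10.2), with 8.13 in lane 1 and 5.81 in lane 2. Fibroblast-like cells had the reverse, 37.3 Tnfrsf11b UMIs per Tnfsf11 UMI (14.2 to 139), or 20.5 (7.71 to 77.0) without the cell with the most Tnfrsf11b. In that class the transcripts lay mostly in cells with different markers, described with its parts. Both transcripts were seen in the same LEPR stromal cell in 8 cases. These are ratios of RNA; neither protein was measured.

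Csf1, the ligand of CSF1R known for circulating and local support of the monocyte lineage, was the most abundant of the 5 in LEPR stromal cells. It was read as 2926 and 3136 UMIs, 564 CPM (544 to 584), and was found in 1446 cells (77.0%, 75.1 to 78.9) and up to 25 in a cell. In fibroblast-like cells it was read as 91 and 106 UMIs, 121 CPM (98.6 to 148), spread over 64 cells (45.7%) with at most 10 in any of them. The LEPR stromal level was 4.65-fold that of fibroblast-like cells (3.80 to 5.74). Endothelial-like cells gave 6 and 4 UMIs in 5 cells, 29.5 CPM (9.57 to 68.8). Csf1 was the only one of the 5 seen in endothelial-like cells, at a level 19.1-fold below LEPR stromal cells (8.19 to 59.0) and 4.12-fold below fibroblast-like cells (1.71 to 13.0). In megakaryocyte-like cells 1 cell held 18 of the 22 Csf1 UMIs, and that cell had no Lepr, Cxcl12 or Adipoq UMI. Without it the level there fell from 6.37 to 1.16 CPM (0.141 to 4.20).

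Il34, the second ligand of CSF1R and best known from skin and brain, was more restricted than Csf1. LEPR stromal cells gave 1002 and 1035 UMIs, 190 CPM (178 to 202), found in 870 cells (46.4%, 44.1 to 48.6). Fibroblast-like cells gave 8 and 6 UMIs in 9 cells, 8.62 CPM (3.47 to 17.8), a 22-fold difference (10.6 to 54.8). No UMI was seen in endothelial-like cells, and by the exact interval the LEPR stromal level was at least 8.70-fold that level. Per Il34 UMI there were 2.98 Csf1 UMIs in LEPR stromal cells (2.77 to 3.20) and 14.1 in fibroblast-like cells (6.58 to 35.9), and these intervals did not overlap.

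Pth1r, the hormone receptor, was the only one of the 5 with similar levels in both stromal classes. LEPR stromal cells gave 625 and 630 UMIs, 117 CPM (108 to 126), in 675 cells (36.0%, 33.8 to 38.2). Fibroblast-like cells gave 133 and 130 UMIs, 162 CPM (135 to 192), in 51 cells (36.4%, 28.5 to 45.0). The fibroblast-like level was 1.39-fold higher (1.14 to 1.68), a direction that depended on how that class was drawn: at the finer resolution of 1.2 it was 71.4 CPM, and in cells taken by marker genes alone it was 30.5 CPM, both below the LEPR stromal level. No UMI was seen in endothelial-like cells, and by the exact interval the LEPR stromal level was at least 5.35-fold that level.

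Megakaryocyte-like and erythroid-like cells held few UMIs of the 5 factors, and also few of the LEPR stromal markers, to which the factors are compared here. Over the 12 LEPR stromal markers, megakaryocyte-like cells had a median of 0.424% of the LEPR stromal level (0.223% to 2.11%), and the 4 factors seen there stood at 0.306% (Il34) to 1.74% (Pth1r). Erythroid-like cells had a median of 0.0880% over the same markers (0.0610% to 0.500%), beside 0.0738% (Il34) to 0.339% (Pth1r) for the 5 factors. Each value lay inside the range of the markers. Tnfsf11, Csf1 and Pth1r were, however, above the marker median in both classes, and Tnfrsf11b was above it in erythroid-like cells. The top of each range was set by 1 marker, Hp in megakaryocyte-like and Lepr in erythroid-like cells. Lepr also chose the LEPR stromal cells, so its level there was set in part by the gate. Most megakaryocyte-like Csf1 lay in the cell without Lepr, Cxcl12 or Adipoq UMIs. For comparison, 1.56% of erythroid-like cells had a Csf1 UMI and 3.19% had one of Adipoq. Endothelial-like cells had a median of 0.337% (0% to 17.1% for Kitl), beside 5.23% for Csf1, and Adipoq there was at 0.257%. Their Csf1 rested on few molecules, 4 of the 10 UMIs lying in 1 cell that also held 8 UMIs of Cxcl12, without which the level was 17.9 CPM (3.70 to 52.4). In fibroblast-like cells Adipoq was at 0.161% of the LEPR stromal level, beside 12.9% for Tnfsf11, 21.5% for Csf1 and 4.55% for Il34. The median of the 12 markers was 4.09% in fibroblast-like cells, and its highest value was 34.2% for Cxcl14, so all 3 factors lay inside the range of those markers. The part of carried-over RNA in the values of these 4 classes was not tested.

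**Figure D2:**
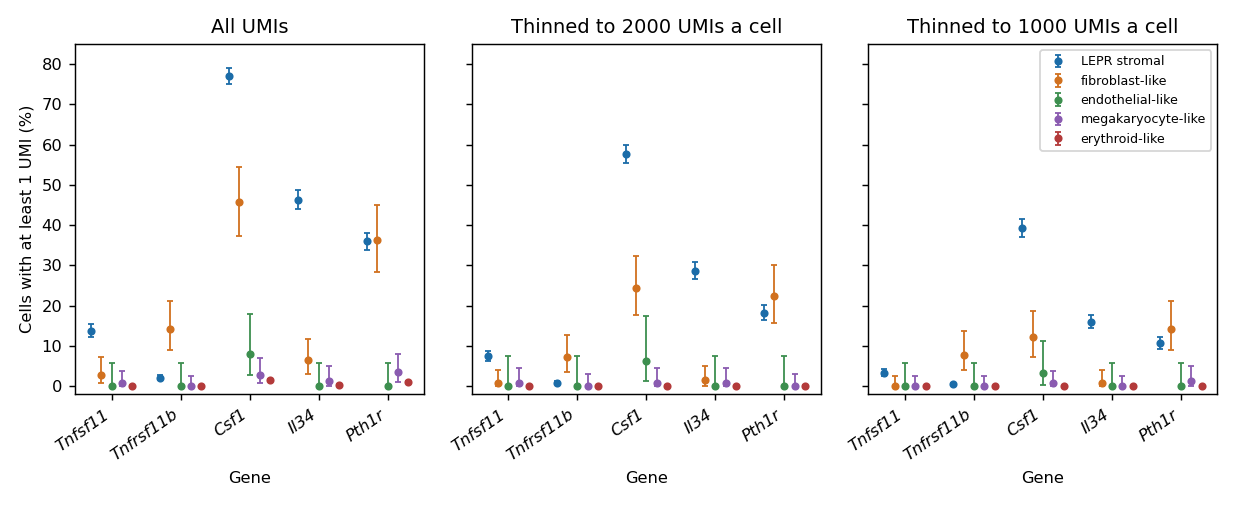
Share of cells with at least 1 UMI of each factor, in percent with exact 95% binomial intervals, for the 5 cell classes with all UMIs and after thinning every cell to 2000 or 1000 UMIs. Csf1 in LEPR stromal cells went from 77.0% to 57.7% and 39.2%, and stayed above every other class in all panels.

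Shares of cells depend on depth, so each cell was thinned to 2000 summed UMIs. This left out 126 LEPR stromal, 1 fibroblast-like, 15 endothelial-like, 21 megakaryocyte-like and 107 erythroid-like cells. Tnfsf11 was then seen in 7.42% of LEPR stromal cells (6.24 to 8.75) against 0.719% of fibroblast-like cells (0.0182 to 3.94). Tnfrsf11b was seen in 0.857% (0.480 to 1.41) against 7.19% (3.5 to 12.8). Csf1 was seen in 57.7% against 24.5%, and Il34 in 28.7% against 1.44%. Intervals of the shares did not overlap for these 4 genes. For Pth1r they did, at 18.2% (16.4 to 20.1) against 22.3% (15.7 to 30.1). Cells with no UMI could not be called negative: within LEPR stromal cells Tnfsf11 was at 39.4 CPM in the 470 shallowest cells and at 32.9 CPM in the 469 deepest, while the share with a UMI went from 8.30% to 18.8%. Csf1 and Il34 levels also moved with depth, from 473 CPM (420 to 532) and 150 CPM (121 to 184) in those shallowest cells. In cells of 5189 to 7157 UMIs they were 623 CPM (583 to 665) and 222 CPM (199 to 248). The deepest cells had 559 and 191 CPM, overlapping the shallowest. Pth1r went from 145 CPM in the shallowest to 108 CPM in the deepest, with overlapping intervals.

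Most LEPR stromal cells had transcripts of more than 1 factor. Of the 1877 cells, 208 (11.1%) had a UMI of none, 563 of 1, 658 of 2, 385 of 3, 61 of 4 and 2 of all 5. Depth moved with this count, from a median of 2692 UMIs in cells with none to 7745 in cells with 4. Tnfsf11 was 33.8 CPM in the 675 cells with a Pth1r UMI and 41.3 CPM in the 1202 without, a ratio of 0.82 (0.61 to 1.10), and 96 cells held both. The ratio was 1.01 (0.69 to 1.53) for a Csf1 UMI and 0.94 (0.71 to 1.25) for an Il34 UMI. All 3 intervals included no difference, and differences within them could not be seen at this depth. Each factor was split by each of the others, and most of these pairs had intervals that included no difference. The exceptions follow. Il34 was higher in cells with a Pth1r UMI (1.14, 1.01 to 1.29) and with a Csf1 UMI (1.39, 1.15 to 1.70). Csf1 was higher in the 38 cells with a Tnfrsf11b UMI (1.38, 1.12 to 1.69). The cells with these UMIs were also deeper, with medians of 5998 against 4752, 5734 against 3484 and 6278 against 5166 UMIs. Csf1 was 597 CPM in the 870 cells with an Il34 UMI and 524 CPM in the 1007 without (ratio 1.14, 1.06 to 1.22), although the former were also deeper, with a median of 6161 against 4438 UMIs.

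The LEPR stromal cells were also split by single genes of osteogenic and adipogenic programmes. Mmp13, a matrix collagenase of osteoblasts and hypertrophic cartilage, was found in 503 cells, whose Tnfsf11 level was 50.8 CPM (40.4 to 63.0). The 1374 other cells had 32.7 CPM (27.1 to 39.0), a ratio of 1.56 (1.16 to 2.07). Cells with Alpl, the alkaline phosphatase of early osteoblasts, had Pth1r at 170 CPM against 109 CPM (ratio 1.56, 1.26 to 1.91). Tnfsf11 gave a ratio of 1.41 for the same split, with an interval of 0.95 to 2.04 that included no difference. Pth1r gave a ratio of 0.99 (0.83 to 1.18) for the Mmp13 split. Csf1 was lower in cells with Alpl (0.86, 0.76 to 0.96) and with Mmp13 (0.89, 0.82 to 0.97), and Il34 was lower in cells with Mmp13 (0.86, 0.75 to 0.99). For Il34 in cells with Alpl the ratio was 1.02 (0.84 to 1.23). Cells with Adipoq, the adipokine of the marrow adipogenic lineage, had more Il34, at 198 against 119 CPM (ratio 1.67, 1.30 to 2.16), and more Csf1 (1.25, 1.10 to 1.42), but less Pth1r (0.77, 0.61 to 0.98). Cells with each marker were also deeper, with medians of 5846 against 4886 UMIs for Mmp13, 5872 against 5089 for Alpl and 5593 against 3390 for Adipoq.

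Clustering the LEPR stromal cells again, without the 5 genes, gave 8 sub-clusters among which the factors varied separately. Tnfsf11 was highest in sub-cluster 4, led by Mmp13, Ccn5, Lum, Srgn and Ibsp, at 64.3 CPM (47.2 to 85.7) over 231 cells. In sub-cluster 3, led by Isg15, Mrap, Irf7, Serpina12 and Lgals1, it was 19.5 CPM (12.0 to 29.9) over 327 cells, and these intervals did not overlap. Sub-cluster 2, led by Gm26802, Fos, Egr1, Fosb and Gm34455, was next highest at 53.3 CPM (39.1 to 70.8), overlapping sub-cluster 4.

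Pth1r was also high in sub-cluster 4, at 162 CPM (134 to 194), against 96.9 CPM (77.4 to 120) in sub-cluster 2. The sub-clusters with most Tnfsf11 were thus not both high in Pth1r. The highest Pth1r value, 187 CPM (104 to 311), was in the 25 cells of sub-cluster 7. Csf1 was highest in sub-cluster 0, led by Rspo2, Igf2, Chl1, Adamtsl3 and Ehd3, at 650 CPM (607 to 696), beside 646 CPM in sub-cluster 2 and 619 CPM in sub-cluster 3. It was 504 CPM (454 to 559) in sub-cluster 4 and 482 CPM (436 to 532) in sub-cluster 1, led by Dnm3os, Col27a1, Lars2, Sned1 and Lama2. Il34 split the cells another way, at 239, 232 and 218 CPM in sub-clusters 0, 3 and 4, and 121 CPM (98.6 to 147) in sub-cluster 1. It was 113 CPM (84.5 to 148) in sub-cluster 5 and 69.3 CPM (24.0 to 156) in sub-cluster 6, both described next. Tnfrsf11b stayed between 3.4 and 9.4 CPM in the sub-clusters where it was seen, with all intervals overlapping.

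Sub-cluster 5, of 115 cells, was led by Pkhd1l1, Hist1h2ak, Mki67, Aspm and Hist1h2bm, among them genes of dividing cells. It held all 13 erythroid markers, at a summed 10748 CPM against 1476 to 4233 CPM in the others, and 25 of its cells were called doublets. Its Tnfsf11 was 8.70 CPM (2.37 to 22.3) and its Csf1 335 CPM, the former the lowest of the 8 sub-clusters. Leaving it out raised Csf1 over the LEPR stromal cells to 585 CPM. The 66 cells of sub-cluster 6, with a median of 2178 UMIs, and the 25 of sub-cluster 7 were too few to place Tnfsf11, with intervals of 5.24 to 101 and 3.12 to 93.2 CPM.

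**Figure D3:**
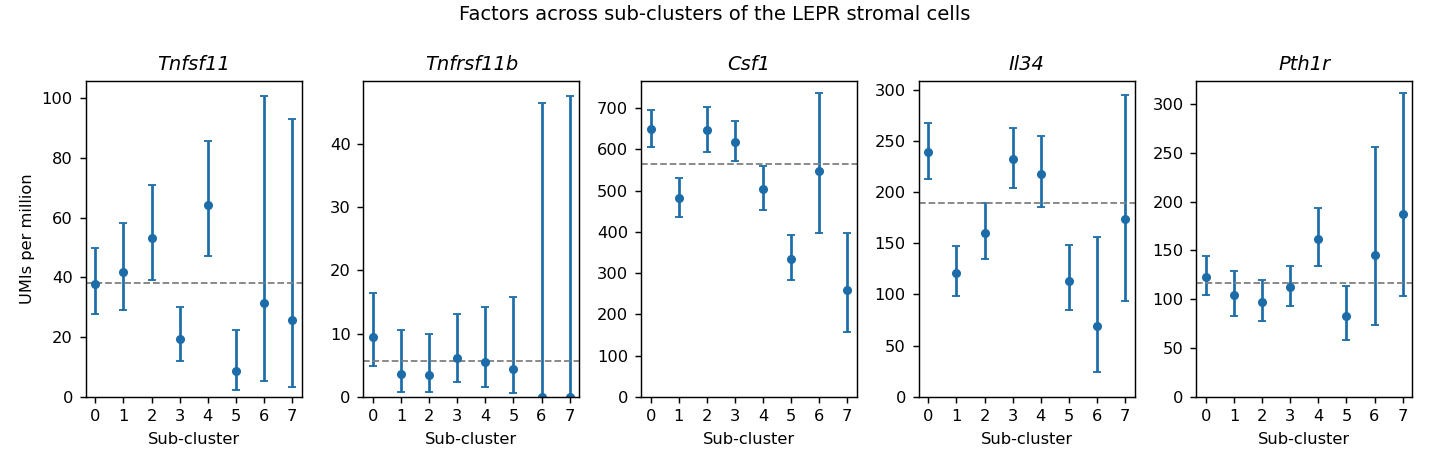
Level of each factor, in CPM on linear axes that start at 0, in the 8 sub-clusters of LEPR stromal cells, with exact 95% counting intervals. The dashed line is the level over all 1877 cells. Tnfsf11 was 64.3 CPM in sub-cluster 4 and 19.5 CPM in sub-cluster 3, while Il34 was 218 and 232 CPM there.

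The fibroblast-like class was a mixture in which Tnfrsf11b and Pth1r varied with the bone and cartilage markers of the cells. Cells were grouped, after their values had been seen, by whether they held a UMI of at least 5 of the 10 osteoblast markers or at least 3 of the 8 chondrocyte markers. The 28 cells with osteoblast markers only had Pth1r at 438 CPM (353 to 537), found in 27 of them. In the 94 cells with neither set Pth1r was 26.4 CPM (13.8 to 45.6), found in 13. Their intervals were far apart, and the lower level was also below the LEPR stromal cells. Pth1r was 105 CPM (49.2 to 196) in the 11 cells with chondrocyte markers only and 467 CPM (275 to 743) in the 7 cells with both sets, where Tnfrsf11b was high as well.

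Tnfrsf11b was highest in cells with chondrocyte markers. It was 1027 CPM (829 to 1258) in the 11 cells with chondrocyte markers only and 1121 CPM (808 to 1515) in the 7 cells with both sets. The former group held the cell with 134 UMIs, without which it was at 429 CPM (280 to 628). It was 42.9 CPM (19.6 to 81.3) in cells with osteoblast markers only and 10.6 CPM (3.43 to 24.6) in cells with neither. Even in the chondrocyte-marked groups a UMI was seen in only 5 of 11 and 3 of 7 cells. Csf1 differed less, at 160 CPM with osteoblast markers only, 121 CPM with neither and 71.8 CPM (27.6 to 152) with chondrocyte markers only, with overlapping intervals. Of the 8 Tnfsf11 UMIs in the class, 7 lay in 3 of the cells with osteoblast markers only. Il34 was not seen in those 28 cells, which allowed up to 14.3 CPM. Median depth was 8221 UMIs with osteoblast markers only, 12118 with chondrocyte markers only and 8015 with neither.

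The cells were also split by the factors themselves. The 20 cells with a Tnfrsf11b UMI had Prg4, which encodes the joint lubricant lubricin, at 17548 CPM against 872 CPM in the other 120. They had Sox9, the chondrocyte transcription factor, at 748 against 29.2 CPM, Chad, a cartilage matrix protein, at 2016 against 80.9 CPM, and Clu, which encodes clusterin, at 6157 against 128 CPM. The cell with 134 Tnfrsf11b UMIs carried much of this, and without it these levels were 4588 CPM for Prg4, 339 CPM for Sox9, 699 CPM for Chad and 1639 CPM for Clu. Prg4 was found in 13 of the 20 cells. Bone genes were not lower in them, with Ibsp, a bone matrix sialoprotein, at 6574 against 2414 CPM. The 51 cells with a Pth1r UMI had Bglap, which encodes osteocalcin, at 457 against 7.23 CPM, Ibsp at 7067 against 349 CPM, and Alpl at 440 against 9.29 CPM. They had less Ly6a, which encodes Sca-1, at 88.6 against 611 CPM, and no UMI of Pi16, a marker of adventitial fibroblasts, which was at 315 CPM in the other 89. The overlap of both factors was 10 cells, 50% of the Tnfrsf11b cells and 19.6% of the Pth1r cells. These genes were picked after looking at the cells and are given as a description.

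**Figure D4:**
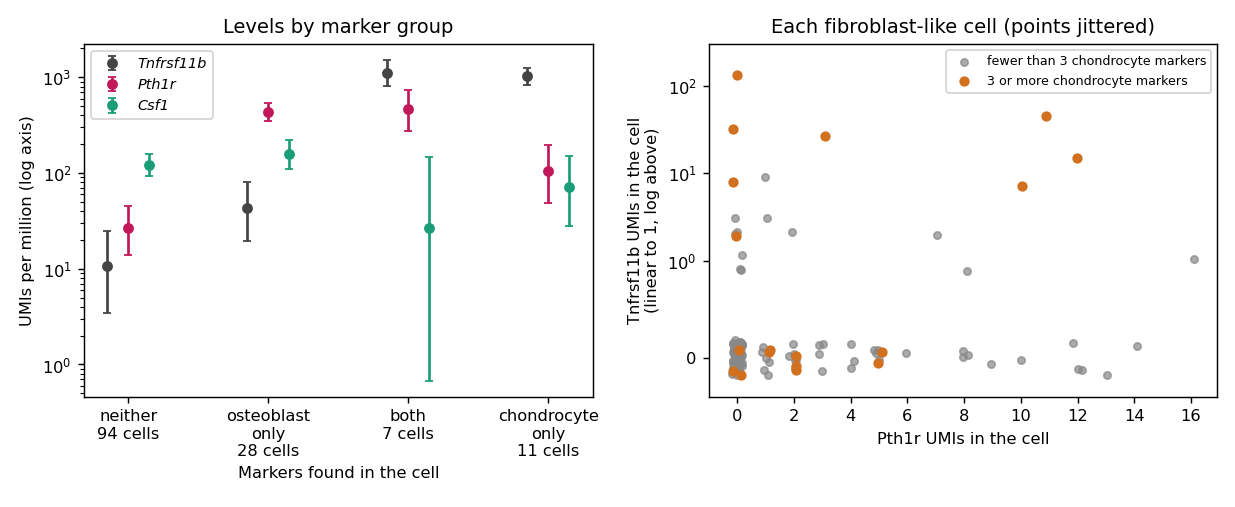
Left, levels of Tnfrsf11b, Pth1r and Csf1 (CPM, log axis, exact 95% counting intervals) in fibroblast-like cells grouped by the bone and cartilage markers they held. Right, UMIs of Tnfrsf11b and Pth1r in each of the 140 cells, with cells of 3 or more chondrocyte markers in orange. Tnfrsf11b was 1027 CPM with chondrocyte markers only and 42.9 CPM with osteoblast markers only, where Pth1r was 438 CPM, and the top cell held 134 Tnfrsf11b UMIs and no Pth1r.

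Related genes were read from 4 lists of 97 genes in all, which include the 5 factors. Comparing LEPR stromal with fibroblast-like cells at a 4-fold difference in CPM, over genes with at least 20 UMIs in the lane mean of both classes together, 6.63% of 11770 genes were higher and 3.31% lower in LEPR stromal cells. Of the 5 factors 3 were higher (Tnfsf11, Csf1 and Il34), 1 was lower (Tnfrsf11b) and Pth1r was neither. Of the 79 list genes with enough UMIs, 11 were higher and 13 lower. The median log2 ratio was 0.27 over the list genes and 0.24 over all genes tested. Cxcl12, which chose the LEPR stromal cells, is 1 of the 11.

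In the list of the RANKL and CSF1R axis, 4 of 11 genes were higher and 2 lower, counting the 4 factors in it. Sdc1, a surface proteoglycan also known to bind IL-34, was higher, at 139 against 33.3 CPM. Ptprz1, a receptor phosphatase that can bind IL-34, was lower, at 1.40 against 65.9 CPM. The receptors through which precursors read these ligands had few UMIs in both stromal classes. Tnfrsf11a, which encodes RANK, had 0 UMIs in 1877 LEPR stromal cells, which allows a share of cells with a UMI of up to 0.160%. Csf1r was seen in 8 of those cells, at 1.49 CPM (0.643 to 2.93). The sheddases known to release RANKL were present in both stromal classes, with Mmp14 at 261 and 195 CPM and Adam10 at 74.7 and 91.2 CPM in LEPR stromal and fibroblast-like cells. Lgr4, a further receptor of RANKL, was at 33.6 and 28.3 CPM.

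In the list of the PTH receptor pathway, 1 of 25 genes was higher and 3 lower. The higher gene, Arrb2, an arrestin, was at 7.44 against 1.85 CPM, a ratio of 4.03 whose interval (0.89 to 57.7) included no difference. Mef2c (41.1 against 264 CPM), Nr4a2 (2.88 against 61.0 CPM) and Pde4b (0.186 against 53.6 CPM), a cyclic AMP phosphodiesterase, were lower in LEPR stromal cells. The signalling core did not pass the difference either way, with the stimulatory G protein gene Gnas at 608 and 990 CPM and Prkar1a, a regulatory subunit of protein kinase A, at 199 and 176 CPM. The hormone genes had few UMIs in LEPR stromal cells. Pth had 0 UMIs, and Pthlh had 5 UMIs at 0.465 CPM (0.0773 to 1.49), against 9.85 CPM (4.25 to 19.4) in fibroblast-like cells, with a UMI in 10 of those cells.

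Among inducers of Tnfsf11 in stroma and their receptors, 1 of 17 genes was higher and 2 lower. Il1r1, the interleukin-1 receptor, was higher at 237 against 56.0 CPM. Ptgs2, the inducible cyclooxygenase of prostaglandin E2 synthesis, was lower at 0.279 against 150 CPM, and the cytokine gene Lif was lower at 1.58 against 33.3 CPM. Of this list, the receptor gene Lifr had the highest level in LEPR stromal cells, at 564 CPM. Il6st, the shared signalling subunit of the interleukin-6 family, was at 216 CPM, Tnfrsf1a at 192 CPM, and Runx2, a transcription factor of the osteoblast lineage, was at 247 CPM. The vitamin D receptor gene Vdr was at 18.4 CPM in LEPR stromal and 41.3 CPM in fibroblast-like cells.

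Of other stromal regulators of osteoclasts, 5 of 26 genes were higher and 6 lower. Apart from Cxcl12, the higher genes were Vcam1 (1251 against 113 CPM), an adhesion molecule, Bmp4 (240 against 45.6 CPM), Sfrp1 (108 against 22.8 CPM), a secreted Wnt antagonist that can bind RANKL, and S1pr1 (115.5 against 24.6 CPM), a receptor of sphingosine-1-phosphate. The lower genes were Ackr3, a scavenging receptor of CXCL12 (0.093 against 132 CPM), Cthrc1 (0 UMIs against 62.8 CPM), Il33 (1.02 against 39.4 CPM), Tgfb2 (8.0 against 108 CPM), Spp1, which encodes osteopontin (1717 against 15303 CPM), and Bmp2 (38.05 against 280 CPM).

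**Figure D5:**
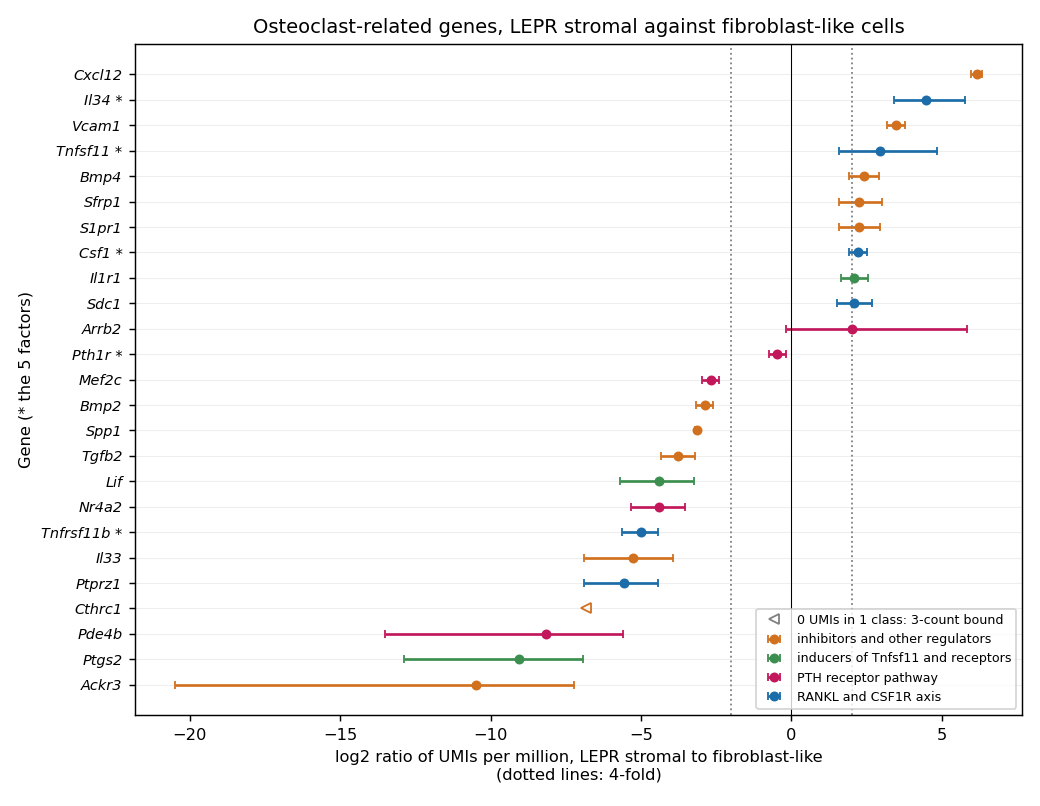
log2 ratio of CPM between LEPR stromal and fibroblast-like cells for list genes past a 4-fold difference (dotted lines) and for the 5 factors (asterisks), coloured by list, with exact 95% counting intervals. Il34, Tnfsf11 and Csf1 lay at 4.46, 2.95 and 2.22, Pth1r at -0.47 and Tnfrsf11b at -5.02.

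Against the remaining classes the background was larger. Of 11513 genes tested against endothelial-like cells, 8.79% were higher and 4.34% lower in LEPR stromal cells, and Csf1, Il34 and Pth1r were higher, while Tnfsf11 and Tnfrsf11b could not be called because their limits in 62 cells were too high. Against megakaryocyte-like cells 23.1% were higher and 7.02% lower, with every factor but Tnfrsf11b among the higher. Against erythroid-like cells 32.8% were higher and 8.27% lower, and all 5 factors were among the higher. Among list genes, 20 of 73 were higher and 5 lower against endothelial-like cells, the latter being Tnfsf10, Efnb2, Mef2c, S1pr1 and Tgfb2. The 20 include Cxcl12, which chose the LEPR stromal cells. They also include Crtc2 (ratio 4.20, 0.74 to 167) and Vdr (6.25, 0.65 to 6410), whose intervals included no difference. Tnfsf10, which encodes TRAIL, the other known ligand of osteoprotegerin, was at 106 CPM in endothelial-like cells and 1.30 CPM in LEPR stromal cells. Efnb2, an ephrin ligand, was at 195 against 1.21 CPM.

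Over the 16 clusters of all kept cells, the genes closest in pattern by Pearson r of log2(CPM + 1) were Mark1, Rspo3 and Pi15 for Tnfsf11 (0.997, 0.996 and 0.996) and Smpd3, Cdon and Tmem119 for Tnfrsf11b (0.997, 0.995 and 0.990). For Csf1 they were Svep1, Vcam1 and Igfbp5 (0.993, 0.992 and 0.992), for Il34 Dipk1c, Marc1 and Rspo3 (0.989, 0.988 and 0.988), and for Pth1r Abca8a, Ogn and Srpx2 (0.998, 0.991 and 0.990). The clusters share libraries, and most of them hold few UMIs of the 5 genes, so a few stromal clusters set each value.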

How the data were processed

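Single-cell RNA-seq of pooled Lin-CD45- bone and marrow cells was available as 2 lanes. The authors aligned the reads with Cell Ranger (build mm10 per the labels) and deposited raw UMI counts per gene and called barcode. The file header names software version 3.0.2, which is not the version in the study's methods.

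Both lanes were added up for each barcode. As each molecule may be counted in both, intervals (exact Poisson, conditional binomial for ratios, 95%) and limits (3 counts over the class) use the lane mean, while shares (Clopper-Pearson) use summed counts. Classes other than the LEPR stromal gate were clusters (Seurat 5.3.0, sctransform 0.4.2, R 4.3.3; 3000 variable genes without the members and lists, 30 components, resolution 0.8), named when at least 3 markers were each in 10% of cells and at 25% of the highest cluster's level; cells in the gate stayed there. Python 3.11.15 with scipy 1.17.1 gave levels, and Scrublet in scanpy 1.11.5 called 186 doublets (1.94%), which were kept. The members, gene lists and naming rule were chosen with earlier results of these data known. Genes named were the members, list genes past 4-fold or among the 6 highest of a list, the 5 leading genes of a cluster and the 3 most alike genes; Outside this rule, Tnfrsf11a, Csf1r, Lgr4, Pth, Pthlh, Vdr, the marker Adipoq, Mmp13, Alpl and the fibroblast-like splits with their genes were chosen after their values were seen. The functions were tested on simulated data. No p-value was computed, since the lanes are not biological replicates.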

Additional observations from a re-analysis of the deposited data

Results flagged for a closer look

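Barcodes left out by the filters were outside all comparisons, and 19 of them met the LEPR stromal gate, with a median of 4767 UMIs and 27.3% mitochondrial UMIs. They were looked at because a signal in data not otherwise used stood above the limit that a count of 0 allows. Csf1 was at 422 CPM there (263 to 642; 21 and 22 UMIs in the lanes), below the 564 CPM of the kept cells, with overlapping intervals. Il34 was at 88.3 CPM (26.5 to 215) and Pth1r also at 88.3 CPM (26.5 to 215), each from 9 UMIs, and both intervals included the level of the kept cells. Tnfsf11 had 3 UMIs in 1 cell, and Tnfrsf11b had none.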

How the results depend on the processing

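Of 546 values recomputed under alternatives, 29 of the main ones and 27 others moved beyond their counting interval, or by over 1.5 times for counts of genes, and no difference past 4-fold changed direction. The smaller Pth1r difference between the stromal classes did, under marker gates and at resolution 1.2. Thinning to 2000 UMIs lowered the shares of LEPR stromal cells to 7.42% (Tnfsf11), 0.857% (Tnfrsf11b), 57.7% (Csf1), 28.7% (Il34) and 18.2% (Pth1r), and thinning to 1000 UMIs to 3.41%, 0.479%, 39.2%, 16% and 10.7%, by construction. With either lane alone the shares were 9.0% to 9.64% for Tnfsf11, 1.17% to 1.49% for Tnfrsf11b, 65.8% to 67.7% for Csf1, 35.5% to 35.8% for Il34 and 25.1% to 26.6% for Pth1r, since fewer UMIs were read. A gate of 2000 Cxcl12 CPM gave 32.6 CPM for Tnfsf11, 483 for Csf1, 163 for Il34 and 102 for Pth1r; the cause was not tested. Chosen after seeing the data, leaving out the erythroid-marked sub-cluster gave 585 CPM for Csf1, and leaving out the cell with most Tnfrsf11b moved its log2 ratio to -4.21. At 2-fold, 20 list genes were higher and 21 lower against fibroblast-like cells, and 10 were lower against endothelial-like cells, where a minimum of 50 UMIs left 3. In fibroblast-like cells, marker gates gave 41.6 CPM for Tnfrsf11b over 38 cells, and resolution 1.2 gave 234 CPM and 0.802 CPM for Tnfsf11. No paired analysis was possible because the lanes belong to 1 group of 1 pool. In 62 endothelial-like cells a count of 0 allowed up to 17.7 CPM.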
